A study of Oryza sativa with 8 samples.

Results

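The basal difference between mhz7 and wild-type (WT) rice shoots was read from 2 of the 8 Affymetrix arrays of the series, 1 of mhz7 shoots in air and 1 of WT shoots in air. MHZ7 is the rice form of EIN2, the membrane protein that carries the ethylene signal forward. Seedlings of both genotypes were germinated in tap water in darkness for 2 days at 37°C and sampled as 3-day-old dark-grown seedlings at 28°C, and the air seedlings were the untreated controls of a treatment with 10 ppm ethylene for 8 h. The 6 other arrays held mhz7 and WT shoots in ethylene, mhz7 and WT roots in air, and mhz7 and WT roots in ethylene. The labels name neither the mhz7 allele, nor the cultivar, nor how many seedlings were pooled for an RNA sample. Members were all 57258 probe sets on the array other than its 123 control probe sets, compared as mhz7 minus WT.

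Ethylene is bound by receptors of the ETR and ERS families, which hold the pathway off in the absence of the gas. When ethylene binds them, EIN2 passes the signal to transcription factors of the EIN3-like (EIL) family, which switch on the response genes. In dark-grown rice, ethylene slows the root and speeds the coleoptile, and plants without EIN2 are known to lack both responses. A comparison in air asks how shoot transcripts differ before any gas is added, when the plant makes only its own ethylene.

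All values below are scaled signals: each array was multiplied so that its trimmed mean was 500, and signals under 100 were set to 100 for differences, which is called the floor. Because 1 array stood for each condition, the direct comparison has no replicate error and no test. A probe set was called different where the signals differed at least 2-fold and the higher was at least 200. Each fold change below is specific to these 2 arrays unless the ethylene shoots are named beside it. In bulk shoots, fewer cells of a type and less RNA per cell cannot be told apart.

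Most transcripts were close on the 2 arrays. Of 21229 probe sets with a signal of at least 200 in either genotype, 96.9% differed by less than 2-fold, and the median log2 difference was -0.02. In mhz7 shoots 409 probe sets (1.93%) were at least 2-fold higher and 258 (1.22%) at least 2-fold lower than in WT shoots. Of these, 40 were higher and 28 were lower by at least 4-fold. Counted by gene, with the brightest probe set standing for each, 260 genes were higher and 165 lower. Of them 71 carry a symbol, as do 2451 of all 17905 genes on the array.

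**Figure D1:**
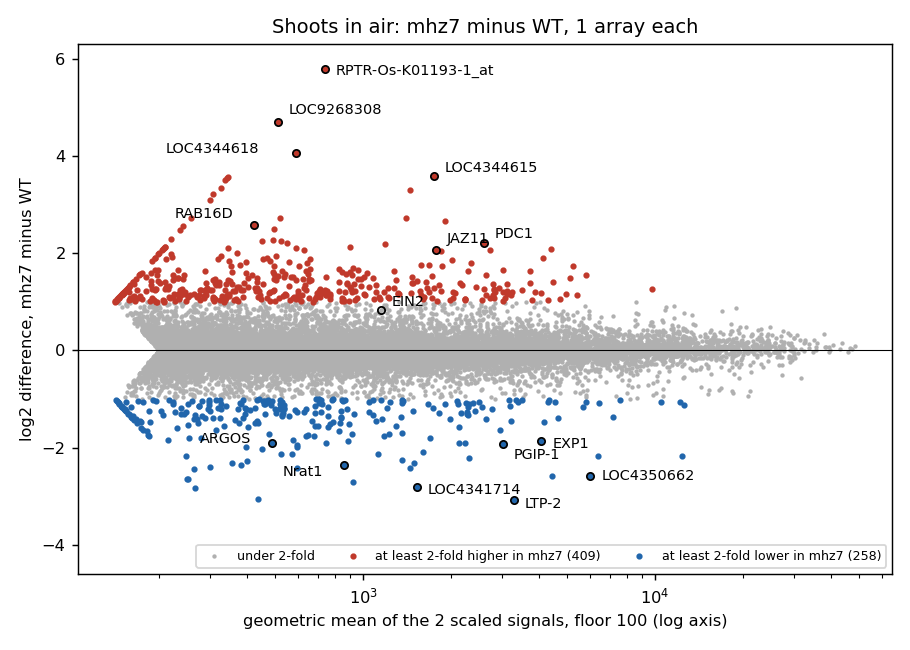
Log2 difference of mhz7 minus WT shoots in air (vertical axis) against the geometric mean of the 2 scaled signals (log axis), 1 point a probe set with a signal of at least 200 on either array. The 409 red points are at least 2-fold higher in mhz7 and the 258 blue points at least 2-fold lower; the probe set RPTR-Os-K01193-1_at and the gene LOC9268308 stand highest, and LTP-2 is among the lowest.

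A measure of RNA integrity differed between the arrays. Signal at the 3′ end of a control transcript was divided by signal at its 5′ end, and for one set of actin probes this was 9.55 in mhz7 shoots and 6.34 in WT shoots in air. For GAPDH the ratio was 5.92 in mhz7 and 4.71 in WT, and for ubiquitin it was 1.52 in mhz7 and 1.35 in WT. In ethylene shoots the actin ratio was 13.5 in mhz7 and 8.26 in WT, so the same genotype was higher there. Its part in the differences below was not tested.

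The tissue labels matched the markers. The leaf markers RBCS, the small subunit of Rubisco, and CAB2R, a light-harvesting protein, had signals of 43163 and 20912 in mhz7 shoots and 42548 and 25250 in WT shoots, against at most 1042 on any root array. Of 62 probe sets that were at least 20-fold brighter in roots than in shoots on the ethylene arrays of both genotypes, the median signal in air shoots was 4.15% of the air root signal in mhz7 and 3.73% in WT, and 2 were higher and 7 lower in mhz7 shoots, against 1.93% and 1.22% of all callable probe sets. Their summed signal was 26532 in mhz7 and 28012 in WT shoots.

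EIN2 itself was higher in the mutant. Its only probe set read 1533 in mhz7 shoots and 859 in WT shoots in air, a difference of 1.78-fold that missed the 2-fold rule. In ethylene shoots it read 1574 in mhz7 and 748 in WT. Fitted over both gases with limma, EIN2 was 0.95 ± 0.14 (SE) log2 units higher in mhz7 shoots (adjusted p = 0.0432). That fit borrows the spread of the root arrays, and no gene passed it with the 4 shoot arrays alone. No source used here says where the probe set lies relative to the mutation, so its signal does not check the label.

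The largest difference on the array belonged to a probe set that no gene is paired with here, RPTR-Os-K01193-1_at. It read 5498 in mhz7 shoots and 16.5 in WT shoots in air, at least 55.0-fold higher against the floor of 100. The other 3 pairs had the same pattern, with 4735 in mhz7 and 17.3 in WT ethylene shoots, 2730 in mhz7 and 19.5 in WT air roots, and 2701 in mhz7 and 21.8 in WT ethylene roots. Its prefix marks the array maker's set of 64 reporter probe sets. Of the other 63, 59 were under the floor on all 8 arrays and none exceeded 148 on any array.

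A few rice probe sets shared this on-off pattern. Above 200 on all 4 mhz7 arrays and under 100 on all 4 WT arrays were 6 probe sets in all, and none had the opposite pattern. LOC4331398 was in this group with both of its probe sets, the brighter reading 1127 in mhz7 and 15.5 in WT air shoots. LOC4340325 read 400.1 in mhz7 and 49.1 in WT air shoots. LOC9268308 came close to it, with 2608 in mhz7 and 57.7 in WT air shoots, at least 26.1-fold higher, and 2336 in mhz7 and 63.9 in WT ethylene shoots. The tables used here give no role for these 3 genes.

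Among the genes of ethylene perception and signalling, the receptors were on the low side in mhz7 and an EIL gene was on the high side. The receptor gene ETR2 read 740 in mhz7 and 1418 in WT air shoots, and 778 in mhz7 and 2567 in WT ethylene shoots. ETR3 read 520 in mhz7 and 951 in WT air shoots, and 617 in mhz7 and 1215 in WT ethylene shoots. Neither differed 2-fold in air, and the limma fit over both gases gave -0.92 ± 0.08 (SE) log2 units for ETR3 (adjusted p = 0.0214) and -1.33 ± 0.32 for ETR2 (adjusted p = 0.0893). The receptors ERS1, at 4069 in mhz7 and 5259 in WT, and ERS2, at 315 in mhz7 and 449 in WT, had log2 differences of -0.37 and -0.51, and ETR4 was under the floor in both genotypes.

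The EIN3-like factors differed unequally. EIL1B read 1437 in mhz7 and 617 in WT air shoots, a 2.33-fold difference, and 1498 in mhz7 and 152 in WT ethylene shoots. EIL1A read 10886 in mhz7 and 11281 in WT air shoots, 1.04-fold apart. EIL1B was the only one of 7 measured members called in air, against 1.6% of 13839 measured genes called higher and 1.08% called lower, and its adjusted p over both gases was 0.0832.

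None of the 4 measured genes of ethylene synthesis was called. ACS2, which makes the ethylene precursor, had the widest gap, with 262 in mhz7 and 138 in WT air shoots (log2 difference 0.92). ACO1, the oxidase of the last step, read 9943 in mhz7 and 12546 in WT air shoots. The S-adenosylmethionine synthetases SAM1 and SAM2, which make the precursor's substrate, had log2 differences of 0.14 and 0.15.

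The JAZ repressors were the list with the highest median. JAZ proteins bind and hold back transcription factors of the jasmonate pathway, and their genes are themselves induced by jasmonate. Of 12 measured JAZ genes 7 were called higher in mhz7 air shoots and none lower, with a median log2 difference of 1.34 beside -0.03 over all measured genes. In the fit over both gases 8 of the 12 had an adjusted p under 0.05 (limma), all higher in mhz7, against 309 of 13839 genes (2.23%) called higher there.

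JAZ11 read 3623 in mhz7 and 868 in WT air shoots (4.17-fold). JAZ8 read 3826 in mhz7 and 1063 in WT (3.6-fold), and JAZ10 read 5319 in mhz7 and 1699 in WT (3.13-fold). In ethylene shoots JAZ11 read 3126 in mhz7 and 647 in WT, JAZ8 read 3291 in mhz7 and 378 in WT, and JAZ10 read 5941 in mhz7 and 1525 in WT. JAZ12 was 2.43-fold higher in air, at 4546 in mhz7 and 1873 in WT.

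JAZ13, JAZ5 and JAZ9 were low in WT. JAZ13 read 427 in mhz7 and 88.9 in WT air shoots, at least 4.27-fold higher. JAZ5 read 307 in mhz7 and 114 in WT, and JAZ9 read 265 in mhz7 and 64.5 in WT, at least 2.65-fold higher. With these low members set to a floor of 200, the list's median was 0.64.

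The remaining JAZ genes differed less. JAZ6 read 4255 in mhz7 and 2677 in WT air shoots (log2 difference 0.67, adjusted p over both gases 0.0454), while JAZ4, JAZ1 and JAZ7 had log2 differences of 0.40, 0.31 and 0.27, and JAZ3 had one of -0.27. JAZ9, JAZ10 and JAZ11 lie next to each other on chromosome 3 of the assembly ASM3414082v1. The probe sets of JAZ4, JAZ6 and JAZ10 carry the suffix that the array maker gives where probes also match other transcripts, so their signals may be shared; the second probe set of JAZ10 had a log2 difference of 1.34.

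**Figure D2:**
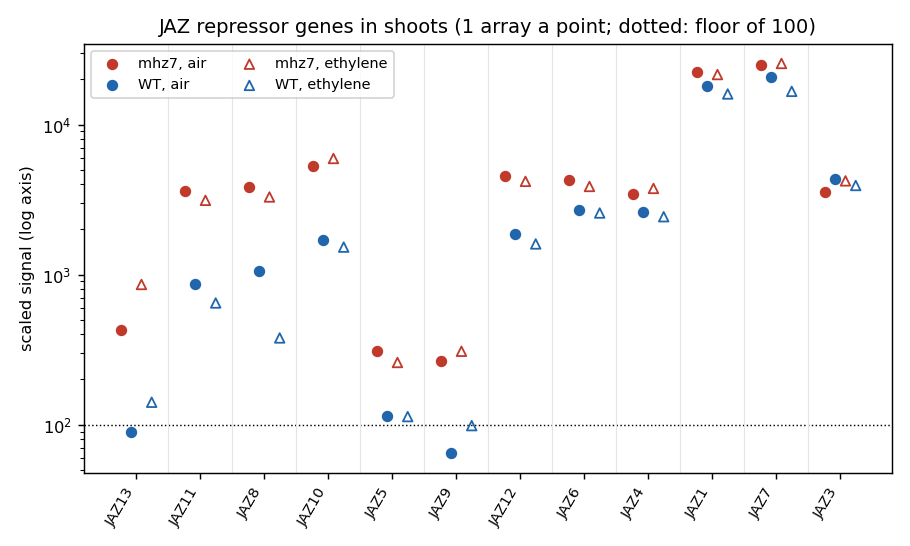
Scaled signal (log axis) of the 12 measured JAZ genes on the 4 shoot arrays, 1 point an array, ordered by the log2 difference in air; circles are air, triangles ethylene, red mhz7 and blue WT, and the dotted line is the floor of 100. From JAZ13 to JAZ12 both red points lie above both blue points, and JAZ3 is the only gene with mhz7 below WT in air.

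Other jasmonate genes lay closer to level. None of 15 measured genes of jasmonate synthesis and response was called in air, and their median log2 difference was 0.07. OPR10, an oxophytodienoate reductase, had the largest difference, with 1592 in mhz7 and 1116 in WT air shoots (0.51). AOS4, an allene oxide synthase, read 10207 in mhz7 and 8870 in WT air shoots. COI1B, a jasmonate receptor subunit, read 2998 in mhz7 and 4008 in WT air shoots (-0.42).

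Defence genes formed the second group on the high side. Rice makes diterpenoid phytoalexins, antimicrobial compounds such as momilactones and phytocassanes, through copalyl diphosphate synthases (CPS), kaurene synthase-like enzymes (KSL) and cytochromes P450. All 9 measured genes of this pathway read higher in mhz7 air shoots, with a median log2 difference of 0.88, and 4 were called higher, against 1.6% of all measured genes. In the limma fit over both gases 2 of the 9 were higher at an adjusted p under 0.05, against 2.23% of all measured genes. CYP701A8, a kaurene oxidase-like P450, read 1413 in mhz7 and 548 in WT air shoots, and 866 in mhz7 and 172 in WT ethylene shoots.

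The momilactone genes CPS4 and CYP99A3 were just past the line. CPS4 read 1039 in mhz7 and 481 in WT air shoots (2.16-fold), and CYP99A3 read 2849 in mhz7 and 1387 in WT (2.05-fold). CYP71Z7, a phytocassane P450, read 1197 in mhz7 and 595 in WT (2.01-fold). With each array divided by its median in place of the trimmed mean, 2 members were called rather than 4. In ethylene roots the momilactone genes stood the other way, CYP99A3 at 916 in mhz7 and 5295 in WT. In the limma fit, which borrows the spread of the roots, none of these 3 genes passed. Their adjusted p in shoots over both gases was 0.365 for CPS4, 0.295 for CYP99A3 and 0.0665 for CYP71Z7.

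Other defence genes were spread. Cht2, a chitinase, read 711 in mhz7 and 243 in WT air shoots (2.93-fold), and was the only one of 8 measured defence protein genes called. For this list and the WRKY list below, the shares among all measured genes were 1.6% called higher and 1.08% lower. PBZ1, a pathogenesis-related protein of the PR10 family, read 22348 in mhz7 and 12821 in WT air shoots (log2 difference 0.80). Chib3H-h and Chib3H-a, homologues of class III chitinases, read 1262 and 1390 in mhz7 and 342 and 608 in WT air shoots. Of 5 measured WRKY factors, a family that regulates defence genes, only WRKY71 was called, at 1094 in mhz7 and 477 in WT air shoots, and 1206 in mhz7 and 515 in WT ethylene shoots (1.21 ± 0.08 (SE) log2 units over both gases, limma adjusted p = 0.0131). Agglutinin, a lectin, read 502 in mhz7 and 185 in WT air shoots.

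Most genes on the array have no symbol, and many of the largest differences were in such genes. Some of these lay near each other in the genome. Of 255 genes called higher and placed on the assembly ASM3414082v1, 68 (26.7%) had another gene called higher within 10 protein-coding genes, as did 14.2% of the 13536 other measured genes. Of 165 called lower 27 (16.4%) had another called lower within that distance, as did 10.7% of the 13605 others. The difference between these shares was not tested. On chromosome 8 a run of 5 genes within a span of 10 held the highest genes measured above the floor on both arrays. LOC4344618 read 2390 in mhz7 and 144 in WT air shoots (16.6-fold), and LOC4344615 read 6049 in mhz7 and 503 in WT air shoots. LOC4344619 read 930.02 in mhz7 and 87.2 in WT, at least 9.3-fold higher.

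LOC4344618 and LOC4344615 kept the order of genotypes in ethylene shoots. There LOC4344618 read 779 in mhz7 and 85.0 in WT, and LOC4344615 read 2379 in mhz7 and 180 in WT. In air roots LOC4344615 read 344 in mhz7 and 33.1 in WT, and in ethylene roots both were under the floor. The 2 remaining genes of the run, LOC4344616 and LOC4344624, read 696 and 1345 in mhz7 and 205 and 505 in WT air shoots. In ethylene shoots they differed by less than 2-fold, at 346 and 853 in mhz7 and 242 and 495 in WT.

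On chromosome 11 a run of 7 genes within a span of 10 was higher, and it includes both Chib3H genes. LOC4351198 read 1336 in mhz7 and 201 in WT air shoots (6.63-fold), and LOC4351190 read 1286 in mhz7 and 307 in WT air shoots. In ethylene shoots 3 of the 7 differed by less than 2-fold: LOC4351190 read 401 in mhz7 and 454 in WT, Chib3H-a 916 in mhz7 and 780 in WT, and LOC4351186 587 in mhz7 and 369 in WT. Tandem copies can share probes, so the members of a run are not independent measurements.

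**Figure D3:**
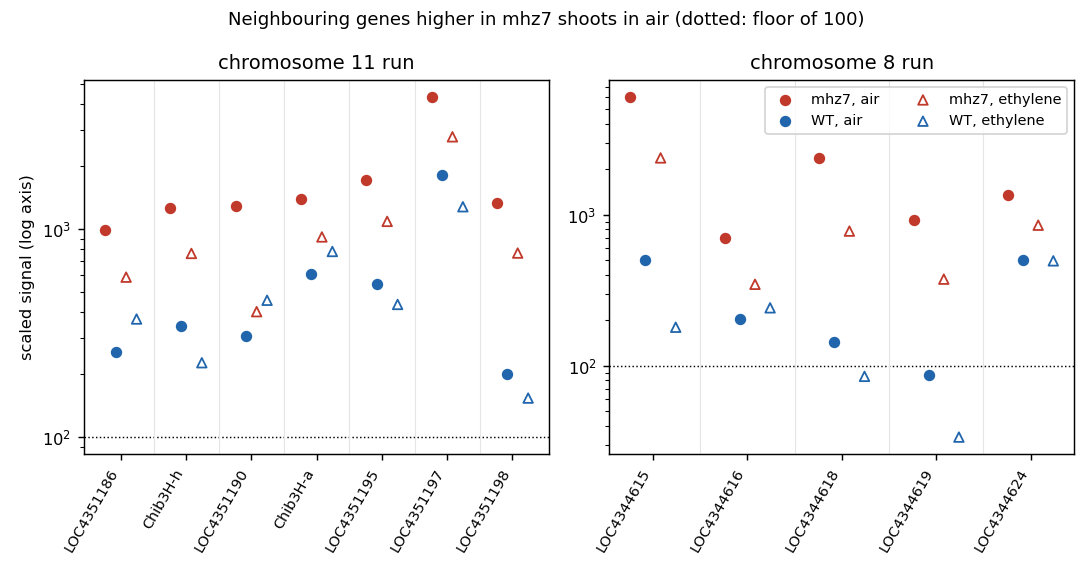
Scaled signal (log axis) of the 7 neighbouring genes on chromosome 11 (left) and the 5 on chromosome 8 (right) on the 4 shoot arrays, 1 point an array; circles are air, triangles ethylene, red mhz7 and blue WT, and the dotted line is the floor of 100. In air every mhz7 point is above its WT point, by 16.6-fold at LOC4344618; in ethylene LOC4351190 has mhz7 at 401 and WT at 454.

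3 further runs were higher and 1 lower, besides the JAZ genes. On chromosome 4, 5 genes within a span of 26 included CPS4, CYP99A3 and Agglutinin. A run of 3 on chromosome 4, LOC4336795 to LOC4336797, was lower, with log2 differences from -1.17 to -1.02.

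Among metabolic and stress genes a few stood out, while their groups did not. PDC1, pyruvate decarboxylase, an enzyme of fermentation, read 5545 in mhz7 and 1206 in WT air shoots (4.6-fold). In ethylene shoots it read 4937 in mhz7 and 130 in WT. PPDK2, a pyruvate orthophosphate dikinase, read 1181 in mhz7 and 254 in WT air shoots (4.65-fold), on a probe set marked as matching other transcripts. The other 10 measured genes of the fermentation and low oxygen list were not called, and its median was -0.01: PDC2 read 7454 in mhz7 and 8561 in WT, and Adh2, alcohol dehydrogenase, 1325 in mhz7 and 1220 in WT. Among all measured genes 1.6% were called higher and 1.08% lower.

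RAB16D, a dehydrin that protects cells under water stress, had the largest positive difference among genes with a symbol that read above the floor on both arrays. It read 1033 in mhz7 and 173 in WT air shoots (5.99-fold), but 293 in mhz7 and 224 in WT ethylene shoots. It was the only one of 22 measured abscisic acid and dehydrin genes called, against 1.6% of all measured genes called higher and 1.08% lower. Its adjusted p over both gases was 0.238 (limma). In ethylene roots it was also called higher, at 499.7 in mhz7 and 214 in WT, but in air roots it read lower in mhz7, at 363 against 496 in WT.

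A few members of other families were higher. Called higher were 1 of 62 measured calcium sensor genes, 2 of 32 heat shock genes, 1 of 23 cytokinin genes, 1 of 20 aquaporins and 1 of 45 auxin response genes. Called lower were 1, 0, 1, 3 and 0 of these lists in the same order. Among all measured genes 1.6% were called higher and 1.08% lower. CML31, a calmodulin-like protein, read 1265 in mhz7 and 443 in WT air shoots, and 968 in mhz7 and 287 in WT ethylene shoots. HSF05, a heat shock factor, read 724 in mhz7 and 260 in WT air shoots, and HSF10 read 351 in mhz7 and 160 in WT. LOGL9, of the LOG family that activates cytokinins, read 1116 in mhz7 and 377 in WT air shoots. PIP2-7, an aquaporin, read 856 in mhz7 and 281 in WT air shoots, and IAA2, an Aux/IAA repressor, read 1099 in mhz7 and 461 in WT air shoots. CML31, HSF05, LOGL9, PIP2-7 and IAA2 were also at least 2-fold higher in mhz7 ethylene shoots, on arrays that share no sample with the air pair. HSF10 was under 2-fold there, at 186 in mhz7 and 102 in WT.

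More genes without a symbol were high in mhz7 air shoots. LOC4346052 read 4792 in mhz7 and 754 in WT, LOC4339960 read 3603 in mhz7 and 544 in WT, and LOC4344266 read 1083 in mhz7 and 224 in WT. LOC4347412 and LOC4347408 read 984 and 714 in mhz7, and 207 and 166 in WT.

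Single genes tied to growth were lower in mhz7. EXP1, an expansin, a protein that loosens cell walls, read 2141 in mhz7 and 7787 in WT air shoots (3.64-fold lower), and 3440 in mhz7 and 7090 in WT ethylene shoots. It was the only one of 22 measured genes for expansins and wall loosening called, against 1.08% of all genes, and the list's median log2 difference was -0.16. ARGOS, named in Arabidopsis for its control of organ size, read 252 in mhz7 and 947 in WT air shoots, and 236 in mhz7 and 2829 in WT ethylene shoots.

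The bHLH family had calls both ways. Of 10 measured members 4 were called lower and 1 higher, with a median log2 difference of -0.31, against 1.08% of all measured genes called lower and 1.6% higher. In the limma fit over both gases 2 were lower and 1 higher. BU1, a helix-loop-helix protein that promotes bending of the rice leaf joint under brassinosteroid, read 297 in mhz7 and 1178 in WT air shoots (3.97-fold lower), and 492 in mhz7 and 3175 in WT ethylene shoots. ILI6, of the same atypical family, read 135 in mhz7 and 473 in WT air shoots, and bHLH081 read 303 in mhz7 and 1088 in WT air shoots. BHLH003 read 329 in mhz7 and 840 in WT, while BHLH148 was higher, at 347 in mhz7 and 156 in WT.

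Hormone transport and metabolism had 2 members on the low side. PIN3A, an auxin efflux carrier, read 491 in mhz7 and 1059 in WT air shoots, and its dimmer probe set had a log2 difference of -0.64. LOGL10, another cytokinin-activating enzyme, read 1155 in mhz7 and 2614 in WT air shoots. Of 45 measured auxin response genes only IAA2 was called, and none of 8 gibberellin genes was, against 1.6% of all measured genes called higher and 1.08% lower. The homeobox gene Hox28 read 329 in mhz7 and 694 in WT air shoots, and 371 in mhz7 and 831 in WT ethylene shoots.

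LTP-2, a lipid transfer protein, had the largest negative difference among genes that read above the floor on both arrays. It read 1126 in mhz7 and 9547 in WT air shoots (8.48-fold lower), and 1434 in mhz7 and 11234 in WT ethylene shoots. PGIP-1, a polygalacturonase inhibitor of the cell wall, read 1537 in mhz7 and 5871 in WT air shoots, and 3399 in mhz7 and 10373 in WT ethylene shoots. OsC3H35, a zinc finger protein, read 1159 in mhz7 and 4337 in WT air shoots, and BGLU6, a beta-glucosidase, 1209 in mhz7 and 3235 in WT.

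Nrat1, an aluminium transporter of the NRAMP family, read 381 in mhz7 and 1945 in WT air shoots (5.1-fold lower). CYP87A3, a cytochrome P450, read 80.7 in mhz7 and 338 in WT air shoots, at least 3.38-fold lower. Among genes without a symbol, LOC4341714 read 578 in mhz7 and 4044 in WT air shoots, LOC4350662 read 2449 in mhz7 and 14738 in WT, and LOC4344999 read 361 in mhz7 and 2350 in WT. LOC4344999 was wider apart in ethylene, with 469 in mhz7 and 7509 in WT shoots.

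Some of the lower genes are far brighter in roots than in shoots. NAS1 and NAS2, nicotianamine synthases that serve iron uptake, read 500 and 677 in mhz7 and 1398 and 1622 in WT air shoots, against 25081 and 25587 in mhz7 and 35687 and 31924 in WT air roots. PIP2-4, an aquaporin, read 525 in mhz7 and 1348 in WT air shoots, against 12288 in mhz7 and 17235 in WT air roots. Of 21 root marker genes 3 were called lower, none higher, and 7 were under the floor in both air shoots. Their log2 differences were below 0 in 7 and above 0 in 7, and root-bright NIP2-1 read 1225 in mhz7 and 1171 in WT air shoots. These markers were picked by name, and PHT1-1 and NAR2.2 were brighter in air shoots than in air roots in both genotypes. Not all 21 are among the measured genes. Among all measured genes 1.08% were called lower and 1.6% higher. Nrat1 and MT4C, also lower in mhz7 air shoots, read 9235 and 22814 in mhz7 and 11919 and 40490 in WT air roots. The part of root tissue in the differences of NAS1, NAS2, PIP2-4, Nrat1 and MT4C was not tested. Of 73 callable probe sets over 10-fold brighter in roots, 6 were higher and 10 lower in mhz7 air shoots, against 1.93% and 1.22% of all callable probe sets. Without them 403 were higher and 248 lower.

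Of the probe sets called lower, 5 were above the floor on the WT air shoot array alone. AMY1.1, an alpha-amylase, read 45.8 in mhz7 and 621 in WT air shoots, and at most 13.0 on the other 6 arrays. LOC4330830 and LOC4344595 did likewise, at 66.4 and 25.1 in mhz7 and 710 and 628 in WT air shoots. Of 15 seed endosperm and aleurone markers AMY1.1 was the only one called, against 1.08% of all measured genes called lower. Of the 15 markers 10 were under the floor in both air shoots, and the summed signal of all 15 was 4943 in mhz7 and 5053 in WT. Of the probe sets called higher, only that of LAC15, a laccase, was above the floor on the mhz7 air shoot array alone.

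Genes of light harvesting, chlorophyll and photosynthesis had a median log2 difference of -0.24, beside -0.03 over all measured genes. Of 18 measured genes 7 were above 0, as were 6058 of all 13839 measured genes. Of the 18 only RCABP89, a chlorophyll a/b-binding protein, was called, at 4417 in mhz7 and 9364 in WT air shoots, against 1.08% of all measured genes called lower. GLK1, a factor that promotes chloroplast development, read 505 in mhz7 and 946 in WT air shoots (log2 difference -0.91), PORA, which reduces protochlorophyllide, 6321 in mhz7 and 10313 in WT (-0.71), and CHLH, a subunit of magnesium chelatase, 614 in mhz7 and 987 in WT (-0.69). On the high side, RCAA1 had the largest rise of the list, at 6353 in mhz7 and 4760 in WT (0.42), and GLK2 read 2933 in mhz7 and 2693 in WT air shoots.

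Several whole lists had no call. None of 56 cell cycle and histone genes was called (median 0.09, range -0.38 to 0.43), none of 22 cytosolic ribosomal protein genes (median 0.08), none of 47 type 2C phosphatase genes and none of 20 phenylpropanoid genes. Genes were read on their brightest probe set only, and another probe set of the phosphatase OsPP2C45 was far higher in mhz7, as given below. In the limma fit over both gases 1 phosphatase gene was higher, and 1 phenylpropanoid gene, Os4CL5, against 2.23% of all measured genes. Os4CL5 read 1650 in mhz7 and 864 in WT air shoots. Dividing cell markers had a median log2 difference of 0.25, and none of 11 was called. Other lists had calls in both directions: of 20 aquaporins 1 was higher and 3 lower, and of 7 metallothioneins MT1B was higher, at 1786 in mhz7 and 782 in WT, and MT4C lower, at 905 in mhz7 and 3170 in WT. Over all measured genes 1.6% were higher and 1.08% lower.

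**Figure D4:**
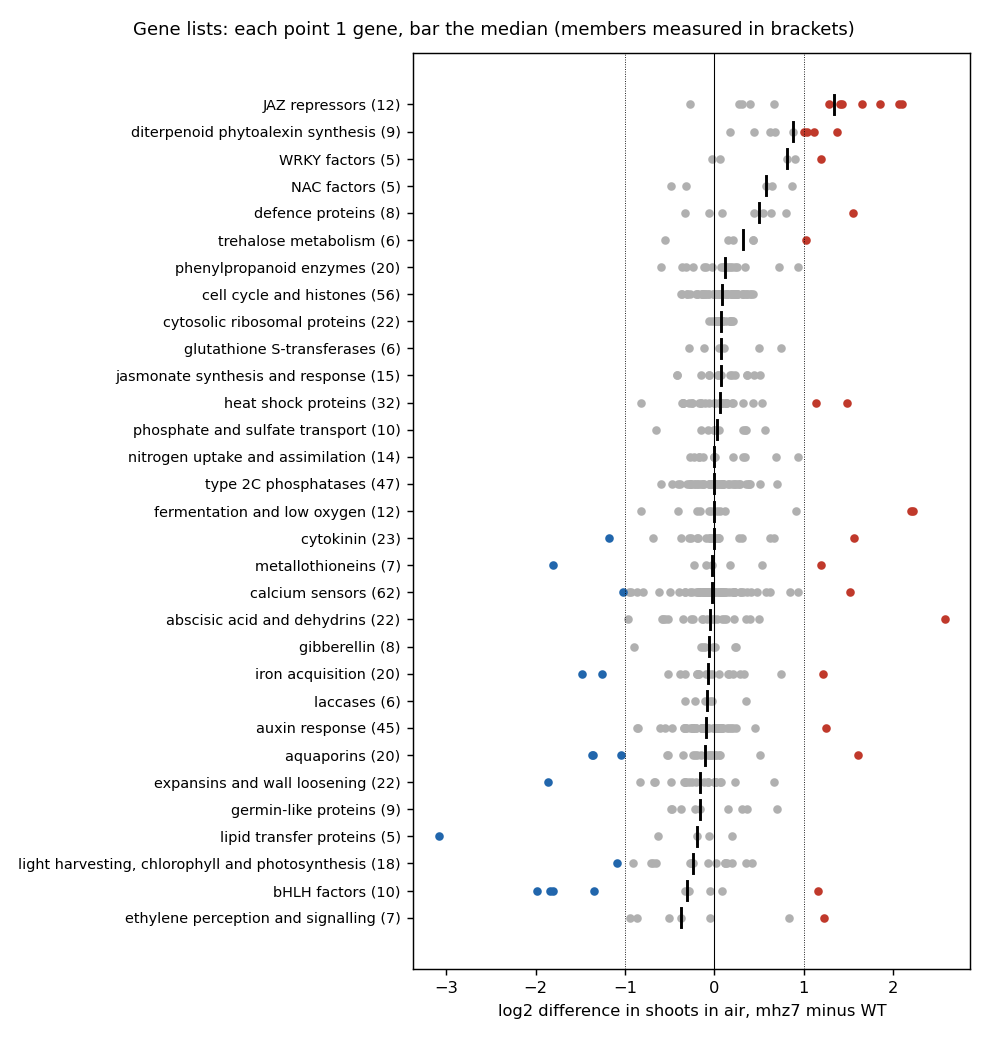
Log2 difference of mhz7 minus WT shoots in air (horizontal axis) for every gene list with at least 5 measured members, 1 point a gene, red called higher, blue called lower, grey neither, and the black bar the median; the number measured follows each name. The JAZ list has its median at 1.34 and the phytoalexin list at 0.88, while the cell cycle, ribosomal and phosphatase lists lie around 0.

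The shoots in ethylene gave a second pair of arrays of the same genotypes that shares no array with the air pair. Of the 409 probe sets higher in air, 280 (68.5%, exact 95% binomial interval 63.7 to 72.9) were also called higher in mhz7 ethylene shoots, where 2.94% of all callable probe sets were. Of the 258 lower in air, 200 (77.5%, interval 71.9 to 82.5) were called lower there too, against 2.3% of all. The shared probe sets were 44.8% of the 625 higher and 40.9% of the 489 lower in ethylene. The intervals cover counting error over probe sets only, which are not independent.

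Across 21446 probe sets with a mean of at least 200, the air and ethylene differences had Pearson's r of 0.77 and Spearman's rho of 0.68, given as a description. Few calls opposed each other: 2 of the higher were called lower in ethylene and 1 of the lower called higher. LOC4340818 was that last one, with 182 in mhz7 and 879 in WT air shoots but 1028 in mhz7 and 446 in WT ethylene shoots. In ethylene 127 of the higher and 57 of the lower differed less than 2-fold, RAB16D and AMY1.1 among them.

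**Figure D5:**
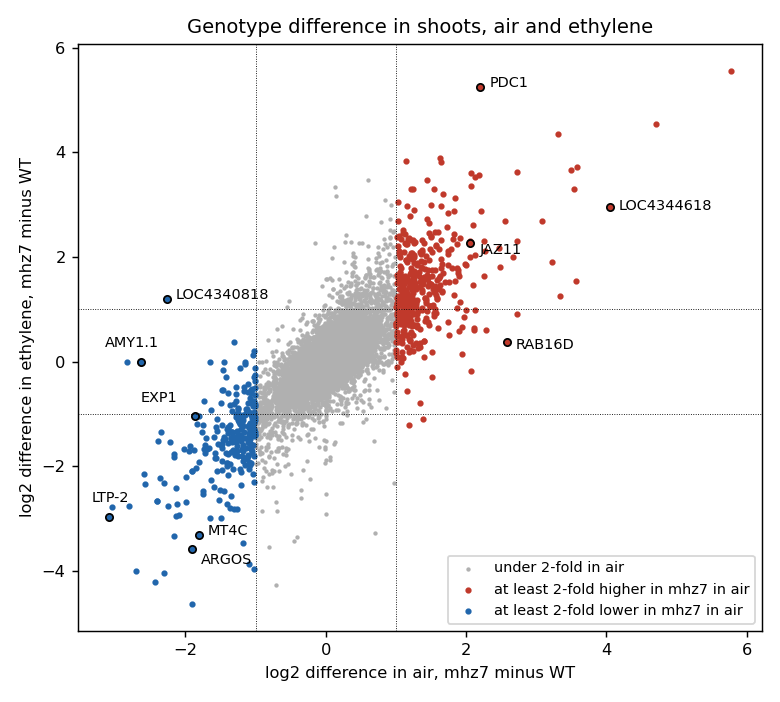
Log2 difference of mhz7 minus WT in ethylene shoots (vertical) against that in air shoots (horizontal), 1 point a probe set with a mean signal of at least 200 or called in air; red and blue mark the probe sets at least 2-fold higher or lower in mhz7 in air, and dotted lines mark 2-fold. PDC1, 4.6-fold higher in air, lies far above the cloud, and RAB16D and LOC4340818 lie off it.

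The roots shared less of the air shoot difference. In air roots 123 (30.1%) of the 409 were also higher in mhz7, against 1.95% of all, and 32 (12.4%) of the 258 also lower, against 1.73%. In ethylene roots 133 (32.5%) of the 409 were higher, against 3.51% of all, and 46 were lower, and 65 (25.2%) of the 258 were lower, against 4.81%. All 4 genotype comparisons called 80 probe sets higher and 25 lower. The JAZ list was high in each: the count of 12 members called higher was 7 in air shoots, 7 in ethylene shoots, 8 in air roots and 8 in ethylene roots, against 1.6%, 2.78%, 1.6% and 3.04% of all measured genes. Higher in both shoot pairs but under 2-fold in both root pairs were 135, and 140 were lower in that way. No minimum root signal was asked for here. A probe set under the floor on all root arrays, such as that of bHLH081 or PIP2-7, therefore counts as under 2-fold in roots. These counts do not separate a difference missing in roots from a transcript not detected there.

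The only test the design allows pooled the arrays. A limma fit over all 8 arrays, with a block for each combination of tissue and gas, takes the air and ethylene shoot pairs as repeats of 1 genotype difference and leaves 2 residual degrees of freedom. Of 21446 probe sets 458 (2.14%) were higher and 454 (2.12%) lower in mhz7 shoots at an adjusted p under 0.05, and 5647 had an unadjusted p under 0.05. Of the 345 higher and 227 lower air calls that entered the fit, 194 and 155 passed in the same direction. The fit includes the air arrays on which those calls were made, so these counts are not an independent check. Among the shoot arrays, only the ethylene pair is separate from the air calls. With the 4 shoot arrays alone limma called 0, at a lowest adjusted p of 0.105, though 5553 had an unadjusted p under 0.05.

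Among named genes with small adjusted p, LTP-2 fell by 3.03 ± 0.11 (SE) log2 units in mhz7 shoots (limma adjusted p = 0.00788), bHLH081 fell by 1.94 ± 0.08 (0.00898) and PGIP-1 fell by 1.77 ± 0.11 (0.0127). bHLH081 was under the floor on every root array, so the roots added no spread to its fit and its SE may be too small. CML31 rose by 1.63 ± 0.09 (0.0117), JAZ11 by 2.17 ± 0.16 (0.0155) and OrysaZxb by 1.02 ± 0.08 (0.0155). PDC1, with 3.72 ± 1.07 (0.121), and ARGOS, with -2.75 ± 0.47 (0.0551), did not pass. None of these passed with the shoot arrays alone. The fit counts as spread whatever part of a genotype difference changes between air and ethylene. In WT shoots PDC1 read 1206 in air and 130 in ethylene, and ARGOS read 947 in air and 2829 in ethylene. For such genes, EIL1B and ETR2 among them, a missed threshold does not separate noise from a difference that depends on the gas. The genotype difference itself differed between shoots and roots at 302 probe sets (1.41%) in the same fit.

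Probe sets of 1 gene did not always agree. Of 1483 genes with several measured probe sets 65 had one called in air, and in 26 of these all were called in that direction, in 39 only some, and in 0 in opposite directions. OsPP2C45, a type 2C phosphatase, was the widest case noticed: its brightest probe set had a log2 difference of -0.04 and its other measured one 2.11. It was chosen after its values were seen.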

How the data were processed

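The values were the authors' deposited intensities, 1 column an array, made with MAS5 per the submitters' processing notes; no source used here states its version or settings. RNA (5 µg of total RNA an array) was labelled with biotin, per the labels' protocols. Each array was scaled to a 2% trimmed mean of 500 (deposited trimmed means 238 to 250) and floored at 100. Probe sets were named through the platform annotation and RefSeq's gene table (ASM3414082v1): 22436 had 1 gene, 95 several and 34727 none. Sequences and promoters were not analysed here. A gene was measured where its brightest probe set averaged at least 200 over 8 arrays. Tests used limma 3.58.1 in R 4.3.3 with Benjamini-Hochberg adjustment, and the script was tested on simulated data; p-values measure only the spread between these arrays. The number of arrays, 1 a condition, limits the precision.

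Genes named by rule were EIN2, the 15 largest differences each way with a symbol and 8 without, up to 5 bounds each way, up to 5 called members of each list with the member nearest its median, all measured ethylene and JAZ genes and the smallest adjusted p-values; other members named were chosen after their values were seen. Members and lists were chosen with earlier results of these data known. Alternatives changed the scaling, floor, thresholds, probe set choice and limma design.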

Additional observations from a re-analysis of the deposited data

Results flagged for a closer look

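For 18 of the 122 named genes in the limma fit over 8 arrays, the genotype difference in shoots departed from that in roots by the interaction term. Each had an adjusted p between 0.0425 and 0.0457 (limma). Of all 21446 probe sets in the fit, 302 (1.41%) passed. Most named genes were chosen for their values in these data, 3 of them for this term, so their count does not measure how common such a departure was. Values are shoot minus root differences in log2 units of mhz7 minus WT. Genes higher in mhz7 shoots with less difference in roots were LOC4344618 at 3.33, LOC4351198 at 2.03, LOC4347412 at 1.97 and LOC4344266 at 1.59. Genes lower in mhz7 shoots with less difference in roots were LOC4341714 at -2.51, LOC4350662 at -2.36, LTP-2 at -2.06, LOC4331714 at -1.97, bHLH081 at -1.94, PGIP-1 at -1.55, BGLU6 at -1.28 and Hox28 at -1.15. bHLH081 was under the floor on all 4 root arrays, and LOC4344618, LOC4347412, LOC4331714 and LOC4341714 on some, so these values depend on the floor of 100.

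In other genes the larger difference was in roots. DREB1A, a cold-response factor, was at -2.45, OrysaZxb at -1.10 and WRKY71 at -0.97, with mhz7 higher in roots. LTP2-B, a lipid transfer protein, was at 1.93, ACO1 at 1.61 and Cht-1, a chitinase, at 1.46, with mhz7 lower in roots. DREB1A was under the floor in mhz7 air shoots and WT air roots and LTP2-B in mhz7 ethylene roots, so their values depend on the floor too.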

How the results depend on the processing

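No difference that passed its threshold changed sign under the alternatives run. Below the threshold, the fitted sign changed in 11 of 122 named genes with 1 genotype difference over all 4 pairs (Cht-1 to -0.15 and WRKY76 to -0.13), in 5 with median scaling and in 1 with quantile normalization, and 4 named air differences, none over 0.07 in size, spanned 0. The limma counts were 520 higher and 652 lower with median scaling, and 454 higher and 501 lower with quantile normalization. At a 3-fold threshold 92 probe sets were higher and 60 lower in mhz7 air shoots, and 71.7% of the lower ones were shared with ethylene shoots. With 1 probe set per gene, the brightest, 260 were higher and 165 lower. Dividing each array by its median left 2 phytoalexin members called, and a floor of 200 gave the JAZ list a median of 0.64. The limma calls depended on the design: the 4 shoot arrays alone gave 0 higher and 0 lower (5553 at an unadjusted p under 0.05), 1 genotype difference over all 4 pairs gave 190 higher and 120 lower, and a fit of all 57258 probe sets, most of them at the floor, gave 14 higher and 16 lower. All 53 named genes called in the fit over 8 arrays lost the call with the shoot arrays alone and with all probe sets, and 37 lost it over 4 pairs. Of 131 named genes, 25 log2 differences moved with a floor of 200 and 11 with a floor of 50. Leaving out probe sets above the floor on only 1 array, or fitting those above it on all 8, was chosen after seeing the data. Each fit compared mhz7 with WT within a tissue and gas; the labels give no replicate numbers to use as a further block. Signals near the floor limit what can be measured: 52.4% of probe sets were under it in mhz7 and 53.1% in WT air shoots.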
